A study of Homo sapiens with 15 samples.

Results

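The LMNB1 locus is described here through 67 of the 647617 peaks that 4 ChIP-seq (chromatin immunoprecipitation with sequencing) lists of MDA-MB-231 cells held. The members are all peaks that overlapped the window chr5:126100000-126185000 of the human genome build hg19, which holds LMNB1 at chr5:126112315-126172712 and about 12 kb on each side. They are 18 peaks of H3K4ox replicate 1, 17 of H3K4ox replicate 2, 12 of H2A.Z and 20 of RUVBL2. LMNB1 was chosen from the scores and positions of its H2A.Z peaks, so the H2A.Z values below describe what was chosen and were not tested.

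MDA-MB-231 is an established human cell line from a triple-negative breast tumour, and the cells of these libraries carried no knockdown or treatment that the labels name. Of the 15 samples, the 4 analysed were made with a home-made antibody to H3K4ox (2 libraries) or a commercial antibody to H2A.Z or RUVBL2 (1 library each). The input, 8 RNA-seq and 2 ATAC-seq samples were not analysed here. The labels do not say whether the 2 H3K4ox libraries are separate cultures, and the spread between them may be technical only. The lists hold no reads and the depth of each library is unknown. Since the RNA-seq samples were not analysed, how much LMNB1 the cells make is not described here.

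LMNB1 encodes lamin B1, an intermediate filament protein of the nuclear lamina, the meshwork that lines the inner nuclear membrane and anchors compact chromatin at the nuclear edge. H2A.Z is a variant of histone H2A that is known for the nucleosomes next to the starts of active genes. RUVBL2 is an ATPase of the remodelling complexes that place H2A.Z in nucleosomes, and H3K4ox is the product of the oxidation of lysine 4 of histone H3 by LOXL2. Like other lamin genes, LMNB1 is made of short exons separated by longer introns.

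Inside LMNB1 lay 10 H2A.Z peaks that were narrow and had high scores, each with a RUVBL2 peak on it. H3K4ox peaks lay before the gene, between the first and the second of these H2A.Z peaks, and after the last one, and nearly none lay among the others. Over the stretch from the second to the tenth high H2A.Z peak (28.4 kb), H3K4ox peaks covered 1.33% ± 1.88 (SD, n = 2), against 42.5% ± 6.79 of the 26.4 kb before it. The stretch held 0 H3K4ox peaks in replicate 1 and 1 in replicate 2. Its limits come from the H2A.Z peaks that chose the gene. Chromosome 5 had a median of 6 H3K4ox peaks per 85 kb in both replicates. That length is much longer than the 28.4 kb of the stretch, so these counts cannot be set side by side. Whether the stretch holds fewer than is usual was not tested. Exon positions of LMNB1 in hg19 were not used here, so whether the H2A.Z and RUVBL2 peaks sit on its exons was not analysed. Whether they come from chromatin or from carried-over cDNA or plasmid was not tested.

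**Figure D1:**
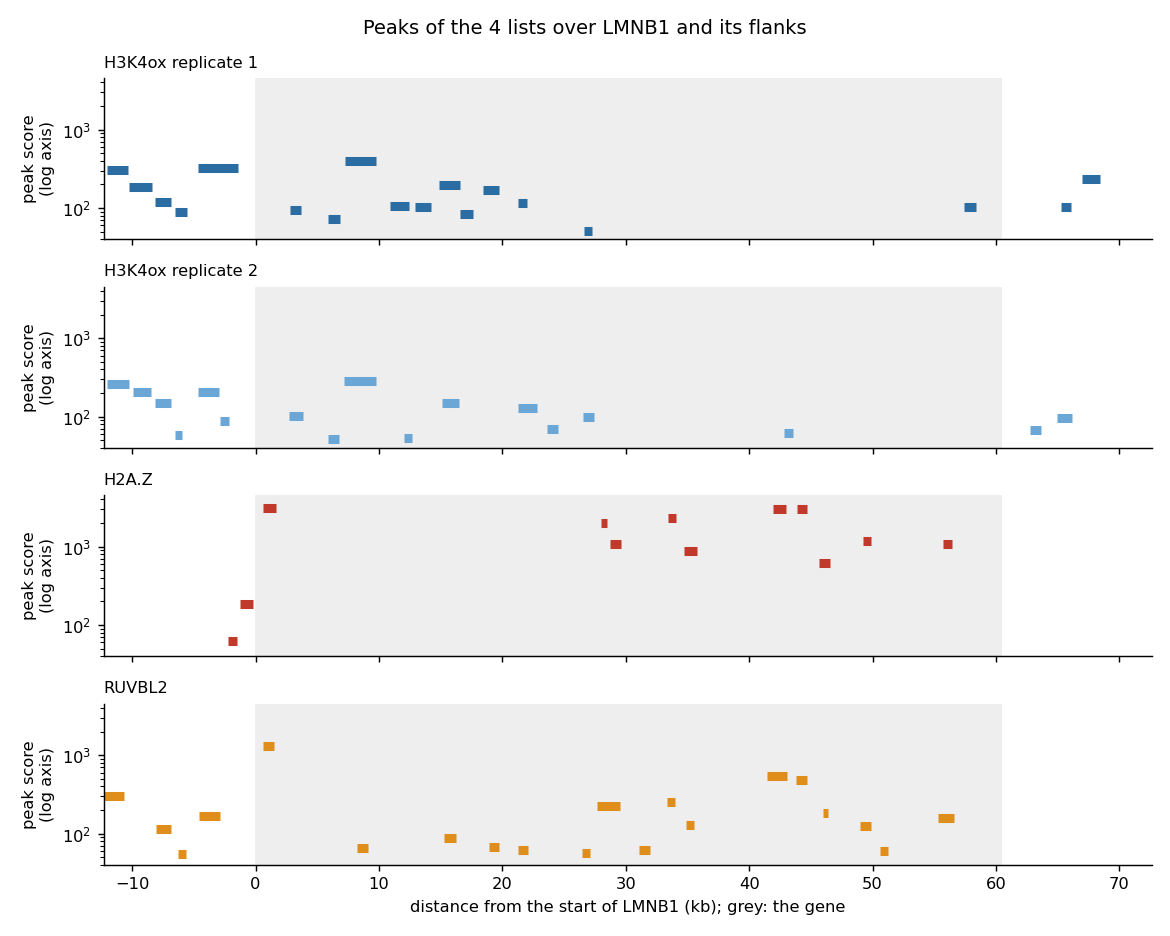
Each bar is 1 peak, drawn from its start to its end (x axis, distance from the start of LMNB1 in kb) at the height of its score (y axis, log scale, no unit given), with 1 panel per list and the gene in grey. The 10 H2A.Z peaks in the gene score from 626.4 to 3100, and H3K4ox peaks are dense before the gene and in its first 28 kb and sparse after that.

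The score is the value that the authors' peak caller wrote for each peak, and it serves here mainly to rank peaks within a list. Of the 10 high H2A.Z peaks, 5 were among the 10 best of the 38584 H2A.Z peaks of the list, and the lowest ranked 100. A score of 600 or more was reached by 0.275% of the H2A.Z list. The scores of the 10 peaks had a median of 1611, against 66.7 over the whole list. The member nearest above that limit had 626.4, and the nearest below had 187.4.

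The peaks are taken in order from the start of the gene. Peak 1 (chr5:126112951-126113961) had a score of 3100, the highest of the list, and began 636 bp after the start of LMNB1. RUVBL2 had its highest peak of the window on the same place (chr5:126112885-126113837, score 1293, rank 12 of 109607). The centres of these peaks lay 95 bp apart. No H3K4ox peak of either replicate touched this place, and the nearest began 1075 bp after peak 1. The highest score of the RUVBL2 list was also 3100, in 2 peaks. Whether 3100 is an upper limit of the score was not determined.

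Peaks 2 and 3 lay 257 bp apart after a gap of 26352 bp without H2A.Z. Peak 2 (chr5:126140314-126140777) was the narrowest, with 464 bp, and had a score of 2025. Peak 3 (chr5:126141035-126141924) had a score of 1079. A wider RUVBL2 peak (chr5:126139993-126141850, score 225.3) spanned peak 2 whole and most of peak 3. This is the only place where the RUVBL2 list joined what the H2A.Z list had as separate peaks.

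Peaks 4 and 5 formed the next pair, 627 bp apart. Peak 4 (chr5:126145718-126146426) had a score of 2314 and RUVBL2 one of 253.9 there. Peak 5 (chr5:126147054-126148092) had a score of 873.0 and RUVBL2 one of 129.9. Of the 10 places these were the farthest from H3K4ox, at 5993 and 7055 bp.

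Peaks 6, 7 and 8 followed within 4.6 kb. Peak 6 (chr5:126154276-126155342, score 2990) and peak 7 (chr5:126156166-126157023, score 3006) had nearly the same score, and RUVBL2 had 545.3 and 489.5 on them. Peak 8 (chr5:126157960-126158897) had the lowest H2A.Z score of the 10, 626.4, with a RUVBL2 score of 183.8. Peak 6 was the one high H2A.Z peak that met H3K4ox: its last 196 bp (18.4% of its width) were shared with a peak of replicate 2 (chr5:126155147-126155900, score 62.0), and replicate 1 had no peak there.

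Peaks 9 and 10 stood alone. Peak 9 (chr5:126161528-126162164) had a score of 1197 and RUVBL2 one of 125.5. Peak 10 (chr5:126168030-126168746) had a score of 1078 and RUVBL2 one of 160.0, and it ended 3966 bp before the end of the gene. The 9 gaps between successive peaks were unequal, from 257 to 26352 bp with a median of 2630 bp. Together the 10 peaks covered 8330 bp, or 13.8% of LMNB1.

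At each of the 10 places the H2A.Z score was above the RUVBL2 score. The Spearman correlation of the 2 scores was 0.82 over the 10 pairs, as a description: the pairs come from 1 library each and 2 of them share a RUVBL2 peak. Over the 13439 other pairs of overlapping H2A.Z and RUVBL2 peaks it was -0.0036, and the H2A.Z score was the higher in 33.4%. Those pairs are not a like set, since their median H2A.Z score was 68.0, against 1611 in LMNB1. Pairs of the other high H2A.Z peaks alone were not compared. Scores of different lists need not be on the same scale. The median distance between centres was 114 bp in LMNB1, against 237 bp over the other pairs. Between starts it was 287.5 bp against 248 bp, and between ends 137 bp against 261 bp. The median share of the H2A.Z peak that RUVBL2 covered was 92.6% against 87.7%. The pairs were not matched by width, which limits how far apart the centres of overlapping peaks can lie.

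**Figure D2:**
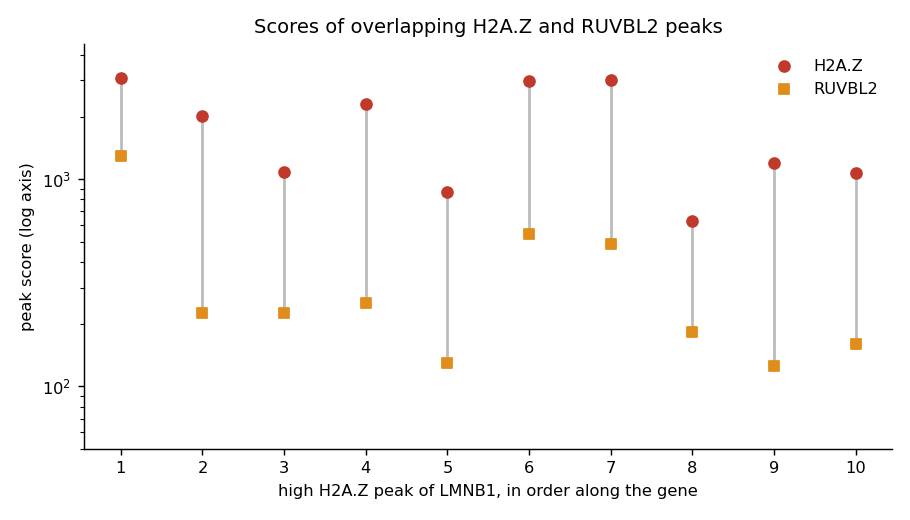
Scores (y axis, log scale, no unit given) of the 10 high H2A.Z peaks of LMNB1 (circles) and of the RUVBL2 peaks that overlap them (squares), in order along the gene (x axis), with a line joining each pair. H2A.Z lies above RUVBL2 at each place. The places were chosen for high H2A.Z scores, and the part of this choice in the difference was not tested. Peaks 2 and 3 share 1 RUVBL2 peak of score 225.3.

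The high H2A.Z peaks of LMNB1 were narrow for their scores. Over the whole H2A.Z list, peaks with higher scores were wider, with a Spearman correlation of score and width of 0.702 across peaks. Among high peaks alone it was weaker, at 0.295 over the 96 outside LMNB1 and 0.006 over the 10 in it. The 10 peaks of LMNB1 were 464 to 1067 bp wide (median 874 bp), close to the list's median of 808 bp. The other 96 high H2A.Z peaks of the list were 896 to 10040 bp wide (median 2193 bp). Of the 30674 H2A.Z peaks no wider than 1067 bp, 13 reached a score of 600, and 10 of these were the LMNB1 peaks. Each member was also set beside the peaks of its own list whose width was within 10% of its own, itself included. For peak 7, of 858 bp, there were 9811 such H2A.Z peaks with a median score of 68.5, and none but itself reached 3006. For peak 8, the lowest, 7 of 8232 scored as high.

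RUVBL2 peaks were also high for their width at most of these places. Of the 9 RUVBL2 peaks on high H2A.Z peaks, 7 were among the highest 5% for their width. The peak at place 1, 953 bp wide, had 1293 where 19030 peaks of like width had a median of 79.3, and no other RUVBL2 peak as narrow scored as high. The RUVBL2 peak at place 4, 625 bp wide, had 253.9 against a median of 56.0, a score that 2 of 20986 peaks reached. The exceptions were the wide peak over places 2 and 3, with 21.5% of like-width peaks as high, and that at place 10, with 10.3%. For the other 11 RUVBL2 peaks of the window this share was between 27.9% and 72.2%. For the 35 H3K4ox peaks it was between 9.35% and 96.9%, so none of them was high for its width in this sense. The H2A.Z part of this comparison belongs to the values that chose the gene, and the RUVBL2 part was not tested.

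**Figure D3:**
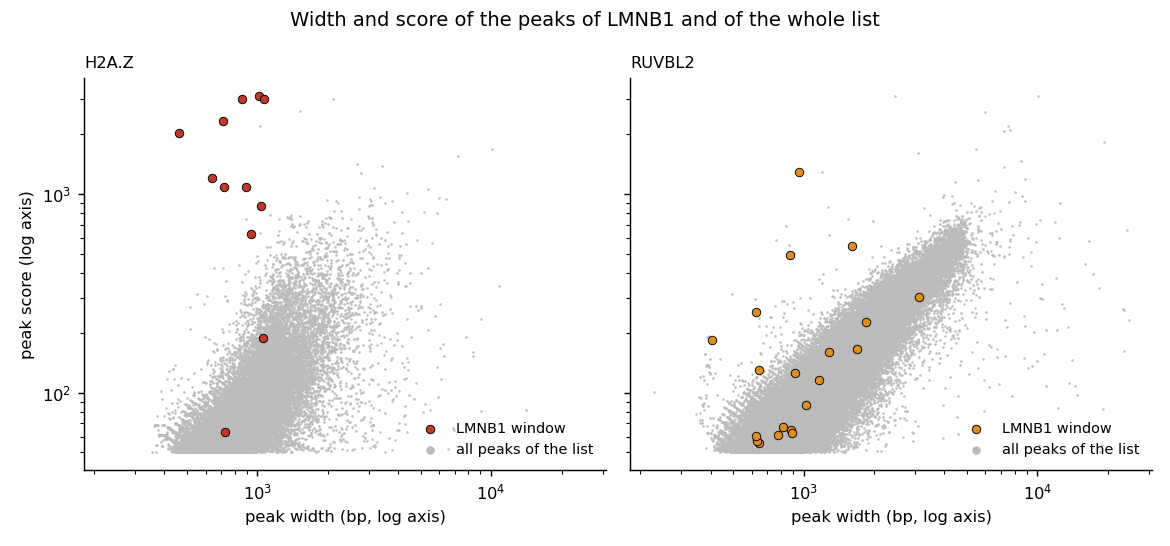
Score (y axis) against width in bp (x axis), both on log scales, for each peak of the H2A.Z list (left) and of the RUVBL2 list (right), with the peaks of the LMNB1 window in colour. The 10 high H2A.Z peaks lie above the cloud of peaks of 464 to 1067 bp, and on the right 7 of the 9 RUVBL2 peaks on them are among the highest 5% for their width.

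At LMNB1, H2A.Z went with RUVBL2 and mostly without H3K4ox. All 10 overlapped a RUVBL2 peak (sharing at least 1 bp), where 33.4% of all H2A.Z peaks and 68.8% of the other high ones did. H3K4ox of either replicate was met by 1 of the 10, where 64.9% of all H2A.Z peaks and 82.3% of the other high ones met it. The other high peaks were wider (median 2193 bp against 874 bp), and a wider peak can more readily share 1 bp. Only 3 of them were no wider than 1067 bp, of which 2 met H3K4ox and 1 met RUVBL2. By replicate, 0 of the 10 met replicate 1 (55.2% of all H2A.Z peaks) and 1 met replicate 2 (53.6%). RUVBL2 without H3K4ox, the case at 9 of the 10, was found at 3.59% of all H2A.Z peaks. The line that heads each list names an input for the H3K4ox lists and none for H2A.Z and RUVBL2. The part of this difference in calling was not tested.

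The start of the gene lay in a gap of all 4 lists. The window's remaining H2A.Z peaks were upstream of it: a small one (chr5:126110078-126110803, score 63.1) that met H3K4ox of both replicates, and one of score 187.4 (chr5:126111044-126112096) that ended 219 bp before the start. Neither met RUVBL2. The last H3K4ox peak before the start ended 1387 bp before it in replicate 1 and 2138 bp in replicate 2, and the first one after it began 2795 and 2721 bp into the gene. RUVBL2 had no peak from 2906 bp before the start to 570 bp after it.

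RefSeq gives LMNB1 2 starts on the plus strand, 513 bp apart in GRCh38.p14. Their promoter sequences (250 bases before to 50 after each start) are shown because H2A.Z peaks flanked the start of the gene on both sides. The peaks are in hg19, and no position was carried from one build to the other. Which of the 2 starts the distances from the start of the gene refer to was therefore not determined. Both strands were searched for 4 motifs, and capitals mark the matches. The CCAAT box was searched as its name spells it. The GC box, a site of SP1-like factors, was searched as GGGCGG. The E box, bound by helix-loop-helix factors such as MYC, was searched as CACGTG, and the TATA box as TATAAA.
LMNB1 start 1, chr5:126776373-126776672: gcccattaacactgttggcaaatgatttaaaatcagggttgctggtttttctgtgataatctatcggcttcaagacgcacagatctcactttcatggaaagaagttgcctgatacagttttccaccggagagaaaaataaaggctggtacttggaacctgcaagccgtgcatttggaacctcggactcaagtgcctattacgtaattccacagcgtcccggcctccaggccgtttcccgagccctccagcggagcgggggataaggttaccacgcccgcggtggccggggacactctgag
LMNB1 start 2, chr5:126776886-126777185: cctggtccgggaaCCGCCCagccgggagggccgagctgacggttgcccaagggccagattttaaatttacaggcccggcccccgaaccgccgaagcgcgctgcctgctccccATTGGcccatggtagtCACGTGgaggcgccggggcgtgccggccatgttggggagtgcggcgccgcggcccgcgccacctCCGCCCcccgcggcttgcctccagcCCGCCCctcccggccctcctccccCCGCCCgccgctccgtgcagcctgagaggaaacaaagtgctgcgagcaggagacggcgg
The sequence at start 1 held none of the 4 motifs. It had 16 CpG and a GC content of 52.0%, near the medians of 14 and 58.7% over 35116 RefSeq promoters. The sequence at start 2 held 4 GC boxes, which 45% of promoters have at least 1 of, 1 CCAAT box (34.6%) and 1 E box (7.26%), with no overlap between them, and no TATA box (11.5%). It was rich in CpG, with 34 and a GC content of 73.7%, and 15.6% of promoters had as many CpG. LMNB1-DT, a long non-coding RNA gene, starts next to LMNB1 on the opposite strand, and the next protein-coding gene after LMNB1 in RefSeq is MARCHF3.

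H3K4ox peaks were mostly of ordinary height for their width, and most overlapped a peak of the other replicate, as over the whole lists. The window held 17.5 ± 0.71 H3K4ox peaks (SD, n = 2), which covered 26.6% ± 3.79 of it. In replicate 1, 13 of 18 peaks overlapped a peak of replicate 2, against 67.8% over its list. In replicate 2, 14 of 17 overlapped replicate 1, against 70.2%. Median scores were 111 and 98.6 in the window and 83.4 and 82.0 over the lists. The peaks of the window were also wider, with medians of 1281 and 1155 bp against 841 and 818 bp over the lists. Merged, the peaks formed 21 regions, of which 13 held both replicates.

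Before the gene, H3K4ox peaks lay in a row from the edge of the window to 1387 bp before the start. Up to H2A.Z peak 1 they covered 64.4% ± 8.75 (SD, n = 2). The peak nearest the gene was the highest of this row in replicate 1 (chr5:126107624-126110928, score 325.8). Replicate 2 had it as 2 peaks, with scores of 207.5 and 88.0.

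The long gap between H2A.Z peaks 1 and 2 was where H3K4ox lay inside LMNB1. It held 9.0 ± 1.41 H3K4ox peaks (SD, n = 2). The highest H3K4ox peak of the window was here in both replicates, 7.3 and 7.2 kb into the gene: chr5:126119589-126122104 with a score of 401.4 in replicate 1, and chr5:126119497-126122077 with 283.1 in replicate 2. The last H3K4ox peak before H2A.Z peak 2 ended at 126139572 in replicate 1 and at 126139725 in replicate 2. By its limits this stretch could hold no high H2A.Z peak, and no lower one was called in it either.

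Replicate 1 had no H3K4ox peak for 30142 bp (chr5:126139573-126169714), a gap that began just before H2A.Z peak 2. Replicate 2 had 1 in the stretch from peak 2 to peak 10, the one that met H2A.Z peak 6. After peak 10, H3K4ox peaks were called again, with 2.5 ± 0.71 peaks (SD, n = 2) that covered 16.3% ± 5.11. The region chr5:126177277-126178471, after the end of the gene, was the one place there with peaks of both replicates. The highest peak in this last part was in replicate 1 only (chr5:126179325-126180724, score 237.6).

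**Figure D4:**
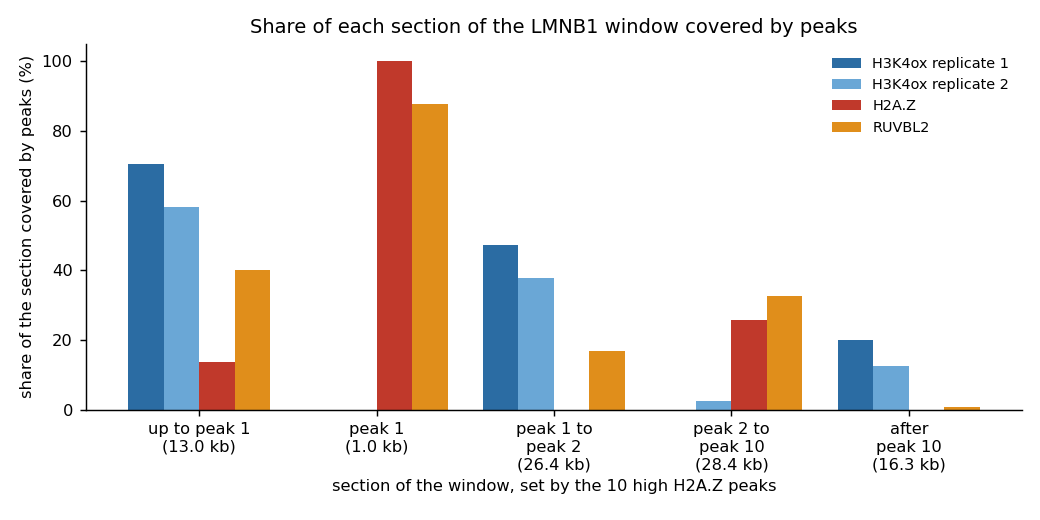
Share of the bases covered by peaks (y axis, in %) in 5 sections of the window, set by the high H2A.Z peaks (x axis, with their lengths), with 1 bar per list. H3K4ox covers 42.5% on average between peaks 1 and 2, where H2A.Z has none. Between peaks 2 and 10 H3K4ox covers 1.33%, H2A.Z 25.7% and RUVBL2 32.6%. The H2A.Z shares follow in part from how the sections were set.

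RUVBL2 was found with both of the others, but at different places. Of its 20 peaks in the window, 9 overlapped H2A.Z, where 11.8% of the RUVBL2 list did, and 10 overlapped H3K4ox, where 81.9% did. The window was chosen for its H2A.Z peaks, so the share with H2A.Z follows in part from the choice. The peak at H2A.Z peak 6 overlapped both, and 2 overlapped neither, where 16.9% of the list did. The 9 with H2A.Z had scores from 125.5 to 1293 (median 225.3). The 9 others with H3K4ox had scores from 55.5 to 304.3 (median 67.3), so the ranges overlapped. The highest of these lay at the edge of the window (chr5:126098522-126101643, score 304.3). The 2 with neither had scores of 62.5 and 60.7. Of the H3K4ox peaks, 9 of 18 and 9 of 17 met RUVBL2, against 30.7% and 31.3% over the lists. H2A.Z was met by 1 of the 18 (8.47% over the list of replicate 1) and by 2 of the 17 (8.46%).

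The neighbourhood of LMNB1 held no other H2A.Z peak of this kind. Within 1 Mb on each side of the window lay 33 H2A.Z peaks, the highest with a score of 183.1, and 111 RUVBL2 peaks, the highest with 361.1. Of these H2A.Z peaks 81.8% met H3K4ox. The nearest H2A.Z peaks outside the window lay 9757 bp before it (score 83.0) and 55688 bp after it (score 50.7). H3K4ox peaks lay just outside it, 130 bp before it in replicate 1 (score 187.6) and 155 bp in replicate 2 (score 271.0). Divided into 2128 windows of 85 kb, chromosome 5 had a median of 1 H2A.Z peak per window, and 3 windows held 12 or more, windows that overlap LMNB1 included. For H3K4ox the median was 6 in both replicates, and 7.52% and 8.08% of windows held as many as the LMNB1 window.

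Elsewhere in the genome, high H2A.Z peaks seldom lay near each other. Joined where they were within 50 kb, the 106 high H2A.Z peaks formed 93 groups. LMNB1 was 1 group of 10, 4 groups had 2 peaks and 88 had 1. The groups of 2 were chr6:42841166-42890810, chr12:122109265-122126485, chr6:36546278-36561869 and chr19:49272631-49315685. Their peaks had median widths from 1699 to 6117 bp. In the first 3 of them both peaks met H3K4ox and RUVBL2, and in that on chromosome 19 1 met each. The next by score was a lone peak at the end of chromosome 5 (chr5:9851-11946, score 2987, width 2096 bp), which met both.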

How the data were processed

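Per the labels' protocols, nuclei of MDA-MB-231 cells were sonicated and their chromatin pulled down with an antibody to H3K4ox, H2A.Z or RUVBL2. The deposited files are 1 peak list per library, in hg19, and the names of the peaks carry the word MACS, per the file headers and rows. The submitters' processing notes name Bowtie and TopHat, with no roles. For the caller's version and settings, and for the unit of the score, nothing is stated in these sources. The deposited score was written for each peak by the authors' caller and was at least 50 in each list. It was used to rank, describe or filter peaks within a list, and to correlate and compare scores of overlapping H2A.Z and RUVBL2 peaks. All lists carry the word multilocus in their headers.

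Starts were counted from 1, and peaks overlapped when they shared at least 1 bp. Samples were grouped by the titles in the labels. The limits of LMNB1 in hg19 were given with the window and were not checked against an annotation. High H2A.Z peaks have a score of 600 or more. Peaks of like width are those of the same list within 10% of a peak's width. No test was run, since H2A.Z and RUVBL2 have 1 library each and the gene was chosen from these values. The members, the lists and the limits of 600 and 50 kb were chosen with earlier results of these data known. Precision rests on the 2 H3K4ox lists, and depth is unknown. By the naming rule, LMNB1 and all its peaks are described, with the next 5 groups of high H2A.Z peaks. The other lamin and nuclear envelope genes of that rule needed gene positions in hg19 and were not analysed here. Overlap and distance functions were tested on simulated data of 300 intervals. Alternatives were other overlaps, score minimums, the gene without flanks and leaving out an H3K4ox replicate. Python 3.11.15, numpy 2.4.6, pandas 2.3.3, scipy 1.17.1 and matplotlib 3.10.9 were used. Promoter sequences came from RefSeq (GRCh38.p14).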

Additional observations from a re-analysis of the deposited data

How the results depend on the processing

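No paired analysis was possible because the H3K4ox replicate numbers are shared with no other group that has a peak list. The counts of LMNB1 exons with a peak were planned and not run, since no exon positions in hg19 were used. Counts of members depended on the score and on the flanks. With a score of 100 or more, the window held 12 RUVBL2 peaks in place of 20 and a mean of 10.5 H3K4ox peaks in place of 17.5, and in LMNB1 without its flanks the H3K4ox mean was 10.0. The H2A.Z count was 10 to 12 under these settings. Leaving out either H3K4ox replicate gave 17 to 18 H3K4ox peaks. Overlap of the 12 H2A.Z peaks with H3K4ox fell from 2 to 1 when 50% of the peak had to be covered and to 0 with intervals of 200 bp at the centres, and was 1 to 2 with either replicate left out. For the 10 high peaks it fell from 1 to 0 under both settings and without replicate 2. Over the whole list the share with H3K4ox fell too, from 64.9% to 61.5% with 50% covered and to 42.2% with 200 bp at the centres. Their overlap with RUVBL2 was 9 with 50% covered, 7 with 200 bp at the centres and 10 with RUVBL2 scores of 100 or more, where the whole list had 29.3% with 50% covered and 15.8% with 200 bp. The settings for the 10 high peaks and those that follow were chosen after seeing the data. The group in LMNB1 had 10 peaks at a score of 300 or more and 8 at 1000 or more. Over the 8 pairs that share no RUVBL2 peak, the median distance between centres was 104 bp.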

Other observations

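High H2A.Z peaks without H3K4ox of either replicate were also found outside LMNB1, at 17 of 96 places, chosen here after their values were seen. The one most like the LMNB1 peaks in width and score was chr3:190572892-190573912, of 1021 bp and score 2197, which met RUVBL2 and lay 5930 bp from the nearest H3K4ox peak. It was the only H2A.Z peak outside LMNB1 that was no wider than 1067 bp and scored above the LMNB1 median. The highest of the 17 was chr15:74218853-74220377, of 1525 bp and score 2603, without RUVBL2. Both stood alone, with no other H2A.Z peak of score 600 or more within 50 kb.

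With lower scores, other groups of H2A.Z peaks appeared. At a score of 300 or more, 2 groups outside LMNB1 had 5 or more peaks within 50 kb of each other, and at 200 or more 14 did. In none of these did 20% of the peaks or fewer meet H3K4ox. At a score of 100 or more there were 199 such groups, and in 21 of them 20% of the peaks or fewer met H3K4ox. At that limit the LMNB1 group had 14 peaks, 4 of them with H3K4ox, since it then took in peaks beyond the gene.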
